A study of Homo sapiens with 12 samples.

Results

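Of the 1971 peaks called in a chromatin immunoprecipitation of the insulin receptor (IR) from HepG2 cells, 230 lay between genes, in an exon or at the end of a gene and more than 1000 bases from the nearest start site given in the peak list. They were chosen by the annotation that the list itself carries. The 230 peaks comprised 162 intergenic, 35 exonic and 33 gene-end peaks (gene-end meaning the annotated transcription termination site). The distance rule removed 24 of 59 exonic and 9 of 42 gene-end peaks and no intergenic peak. The rest of the list was mainly at promoters (1493 peaks) and in introns (215 peaks).

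The series held 1 IR ChIP library, 1 input library and 10 RNA-seq libraries, all from HepG2, an established line derived from a human liver cancer. For the ChIP and input, the labels describe culture in EMEM, then in EMEM with insulin and albumin, a washout of 30 min and a stimulation with 3 nM insulin. The RNA-seq libraries were titled 0, 5, 10, 30 and 240 min of insulin stimulation, with 2 replicates each; their treatment text gives 16 h in EMEM and 3 nM insulin with 5 min for all of them, the 0 min libraries included, and the times of the titles were used. The study's methods describe the RNA-seq as 1 experiment on biologically independent samples, so the p-values measure the spread between samples within that experiment. The 8 hepatocyte markers, ALB and HNF4A among them, were at a median of at least 1 TPM (a transcript level scaled for length and depth), whereas PTPRC, CD3E, KDR, COL1A2, DCN and KRT7 were at a median of 0; of the markers of other cell types, CD68, PECAM1, PDGFRB, ACTA2, SOX9 and EPCAM were also detected at this level. With a single ChIP library, no peak value has a replicate error, and the intervals on shares of peaks below cover counting error only.

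The IR is the receptor tyrosine kinase that binds insulin at the cell surface and starts the PI3K-AKT and MAP kinase cascades. Part of the receptor is also found in the nucleus, and a ChIP peak of such a protein marks DNA that was crosslinked to it directly or through other proteins. Promoters are mostly rich in CpG dinucleotides. Distal regulatory sequences in liver cells are typically CpG-poor and carry sites for liver factors such as the FOXA proteins and HNF4A. ZNF143, a zinc finger activator, and THAP11, which works with the cofactor HCFC1, share a long composite site that is usually found in promoters.

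Of the 10 members with the highest scores, 8 carried the ZNF143/THAP11 composite sequence, and top peaks of the 3 classes are printed here with it. The score is the one in the deposited peak list; its scale is not given in the sources used here, and it was used to order peaks. The stretches are the plus strand of GRCh37 (hg19), 5′ to 3′, and capitals mark a match on either strand to ACTACANNTCCCAG or to the form that is 1 base shorter, ACTACANTCCCAG. These letters were chosen after the sequences of the top peaks had been seen. The first 3 stretches are from intergenic peaks near the pseudogenes AGGF1P1 and AGGF1P2 and the microRNA gene MIR1324, on 3 chromosomes, and are printed because they are near-copies of each other, the third in the opposite orientation.
AGGF1P1 peak, chr4:190970665-190970864: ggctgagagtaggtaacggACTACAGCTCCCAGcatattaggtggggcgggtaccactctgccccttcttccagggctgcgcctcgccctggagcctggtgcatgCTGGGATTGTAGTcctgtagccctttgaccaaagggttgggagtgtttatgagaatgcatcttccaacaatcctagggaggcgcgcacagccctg
AGGF1P2 peak, chr10:135462483-135462682: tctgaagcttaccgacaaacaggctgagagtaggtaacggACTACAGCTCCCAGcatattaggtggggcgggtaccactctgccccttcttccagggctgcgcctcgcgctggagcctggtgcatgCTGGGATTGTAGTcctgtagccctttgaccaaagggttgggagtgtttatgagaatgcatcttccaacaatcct
MIR1324 peak, chr3:75690458-75690657: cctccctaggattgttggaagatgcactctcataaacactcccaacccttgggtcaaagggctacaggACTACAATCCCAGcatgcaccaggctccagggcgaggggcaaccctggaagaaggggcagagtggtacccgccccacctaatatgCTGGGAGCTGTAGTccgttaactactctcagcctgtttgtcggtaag
The next is the intergenic peak near AC006539.4, which held 4 matches, the most of any of the 230; 2 of them lie in the stretch shown.
AC006539.4 peak, chr19:20162953-20163152: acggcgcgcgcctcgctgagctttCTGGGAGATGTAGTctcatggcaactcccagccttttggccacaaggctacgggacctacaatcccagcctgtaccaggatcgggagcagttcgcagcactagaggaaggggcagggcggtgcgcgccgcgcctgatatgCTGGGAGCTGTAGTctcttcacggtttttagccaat
The highest exonic peaks were in the first exon of a short DLG4 transcript, with ASGR1 as the nearest listed gene, and in the last exon of RASIP1, near MAMSTR.
DLG4/ASGR1 peak, chr17:7094910-7095109: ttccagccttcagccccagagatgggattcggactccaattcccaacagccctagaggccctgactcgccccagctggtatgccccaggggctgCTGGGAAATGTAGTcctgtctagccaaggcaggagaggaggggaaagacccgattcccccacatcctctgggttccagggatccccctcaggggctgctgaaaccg
RASIP1/MAMSTR peak, chr19:49223867-49224066: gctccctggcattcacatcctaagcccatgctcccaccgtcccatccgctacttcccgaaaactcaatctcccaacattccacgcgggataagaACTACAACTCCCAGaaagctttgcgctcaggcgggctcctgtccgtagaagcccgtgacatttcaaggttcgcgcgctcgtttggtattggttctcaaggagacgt
The highest gene-end peaks were at the ends of BCAT2 and RTN2.
BCAT2 peak, chr19:49298667-49298866: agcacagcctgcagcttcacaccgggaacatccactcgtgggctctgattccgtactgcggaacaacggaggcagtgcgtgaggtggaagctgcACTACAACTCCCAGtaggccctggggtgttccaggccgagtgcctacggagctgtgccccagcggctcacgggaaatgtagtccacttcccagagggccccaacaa
RTN2 peak, chr19:45988621-45988820: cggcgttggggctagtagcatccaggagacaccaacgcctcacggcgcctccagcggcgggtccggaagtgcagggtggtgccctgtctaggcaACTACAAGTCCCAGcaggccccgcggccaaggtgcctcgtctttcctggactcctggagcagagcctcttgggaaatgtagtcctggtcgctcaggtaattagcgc
Other members are also printed, the peak upstream of FGG and the peak at the end of IL6ST. FGG encodes the gamma chain of fibrinogen, and IL6ST the gp130 subunit of the interleukin-6 receptor. Here capitals mark matches to the FOXA letters TGTTTAC and the HNF4A letters CAAAGTCC on either strand, and neither peak held the ZNF143/THAP11 sequence. Matches of different motifs were counted separately and may overlap.
FGG peak, chr4:155539011-155539210: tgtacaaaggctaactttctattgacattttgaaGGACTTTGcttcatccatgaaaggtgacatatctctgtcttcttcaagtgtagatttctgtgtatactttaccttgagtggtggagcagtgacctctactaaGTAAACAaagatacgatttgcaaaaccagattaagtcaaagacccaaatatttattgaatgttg
IL6ST peak, chr5:55229989-55230188: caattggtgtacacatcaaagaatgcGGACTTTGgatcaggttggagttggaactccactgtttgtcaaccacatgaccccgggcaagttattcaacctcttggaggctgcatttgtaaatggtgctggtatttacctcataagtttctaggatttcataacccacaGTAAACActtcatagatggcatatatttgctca

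The 3 classes differed little in score and width and more in distance. The median score was 47.5 for intergenic peaks (quartiles 30 and 86.5), 62 for exonic peaks (39.5 and 122.5) and 63 for gene-end peaks (35 and 157), against 98 for promoter peaks and 47 for intronic peaks. Scores spanned 13 to 3754 among intergenic, 17 to 1216 among exonic and 14 to 1737 among gene-end peaks, so that the classes overlapped over nearly all of their range. A score above the median of all peaks (79) was reached by 29.6% of intergenic peaks (95% Wilson interval 23.1% to 37.1%), 37.1% of exonic peaks (23.2% to 53.7%) and 42.4% of gene-end peaks (27.2% to 59.2%), and by 55.7% of promoter peaks. The median width was 385.5, 430 and 399 bases in the same order, and 484 bases for promoter peaks.

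Intergenic peaks lay farthest from the listed start site, at a median of 14699 bases (quartiles 6194 and 35268.5). The medians were 7411 bases for exonic peaks (2304.5 and 14795.5) and 4353 bases for gene-end peaks (2273 and 9673). The members were selected on this distance. With no minimum distance, the medians were 1534 bases for exonic and 2654 bases for gene-end peaks, so the order of these classes depended on the limit. The farthest were an intergenic peak 268044 bases from RP11-662J14.1 and one 257281 bases upstream of DIO2, the gene of type 2 deiodinase. Among exonic peaks, the peak in exon 1 of KPNA3, an importin alpha gene, was listed at 87045 bases and a peak in exon 1 of AVEN at 47321 bases. The gene-end peaks at ATP6AP1L and LPP were 77393 and 57750 bases from the listed starts of ATP6AP1L and MIR28. At the other end, the members nearest to the distance limit were the intergenic PTK6 peak at 1077 bases (score 54), the exonic MAMSTR peak at 1093 bases (score 1077) and the gene-end peak near RP11-436I9.6 at 1023 bases (score 35). On the other side of the limit, and so left out, were the exonic CYS1 peak at 814 bases (score 20) and the gene-end peak near HIST1H2BC at 910 bases (score 102). The peaks of lowest score were 2 intergenic peaks at 13, near RP11-268F1.3 and RNY4P30, the exonic RIF1 and LMAN1 peaks at 17 and 19, and the gene-end MIDN and LRCH3 peaks at 14 and 16.

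Among the peaks in the plot of score against distance, those above a score of 500 came from all 3 classes. The Spearman correlation of score with distance was -0.25 over the 162 intergenic peaks, -0.33 over the 35 exonic peaks and 0.01 over the 33 gene-end peaks. These points come from 1 library and are given as a description.

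**Figure D1:**
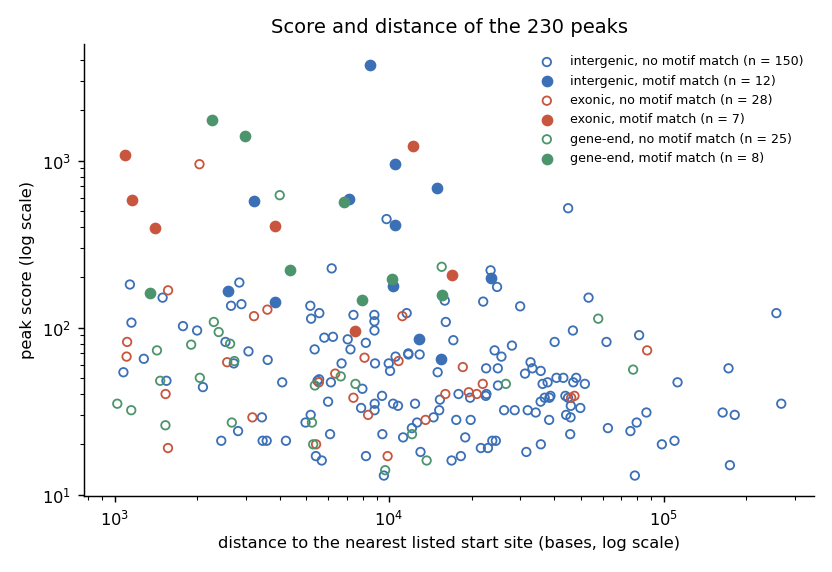
Score of each of the 230 peaks against its distance to the nearest start site in the peak list, both on log scales, coloured by class; filled points held at least 1 ZNF143/THAP11 match in the whole peak. The 27 filled points sit at scores of 65 to 3754, and the 203 open points reach down to 13.

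Whether a peak counted as distant depended on which start sites were considered. When each peak centre was set against the transcript starts of GENCODE version 44 on GRCh37, 28 of 35 exonic peaks (Wilson interval 64.1% to 89.96%) had a start within 1 kb. The same held for 12 of 33 gene-end peaks (36.4%, 22.2% to 53.4%) and 17 of 162 intergenic peaks (10.5%, 6.66% to 16.2%), and for 75 of 215 intronic peaks. The median distance to the nearest GENCODE start was 211 bases for exonic, 1616 bases for gene-end and 8872 bases for intergenic peaks. The intervals of the exonic and intergenic shares did not overlap, and neither did those of the exonic and gene-end shares.

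The exonic peaks were for the most part at first exons. The exon named in the annotation was exon 1 for 28 of the 35, and 25 of these also had a GENCODE start within 1 kb. For the KPNA3 peak, listed at 87045 bases, the nearest GENCODE start of KPNA3 itself was 115 bases away. The peak in exon 1 of AHCY, which encodes the hydrolase of S-adenosylhomocysteine, was listed 8135 bases upstream of AHCY and lay 310 bases from a GENCODE start of the same gene. The peak in exon 1 of EIF4EBP1, whose product represses cap-dependent translation until mTORC1 phosphorylates it, was listed at 16893 bases and lay 88 bases from a start (score 206). In exon 1 of ADH4, an alcohol dehydrogenase gene, a peak of score 128 was assigned to PCNAP1 at 3602 bases and lay 129 bases from a start of ADH4. Only 7 exonic peaks had no GENCODE start within 1 kb, among them the RASIP1/MAMSTR peak at 1081 bases and the peak in the last exon of LNPK at 10424 bases.

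Gene-end peaks were often next to another start as well. At the end of ATP6V0C, which encodes a subunit of the vacuolar proton pump, the nearest start belonged to the neighbouring AMDHD2 at 205 bases. At the end of MIDN, a peak of score 14 lay 177 bases from a start of CIRBP, a cold-inducible RNA-binding protein gene. The BCAT2 gene had 2 gene-end peaks, with scores of 1737 and 620; BCAT2 encodes the mitochondrial branched-chain aminotransferase. The 2nd of them lay 148 bases from a GENCODE start of BCAT2. Of the intergenic peaks, the one near IZUMO2 (score 686) was 3 bases from the start of a long non-coding RNA that the peak list does not have, and a peak of score 85 assigned to the pseudogene RP11-697G4.4 was 15 bases from another such start and 1564 bases from a start of FOXO3.

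**Figure D2:**
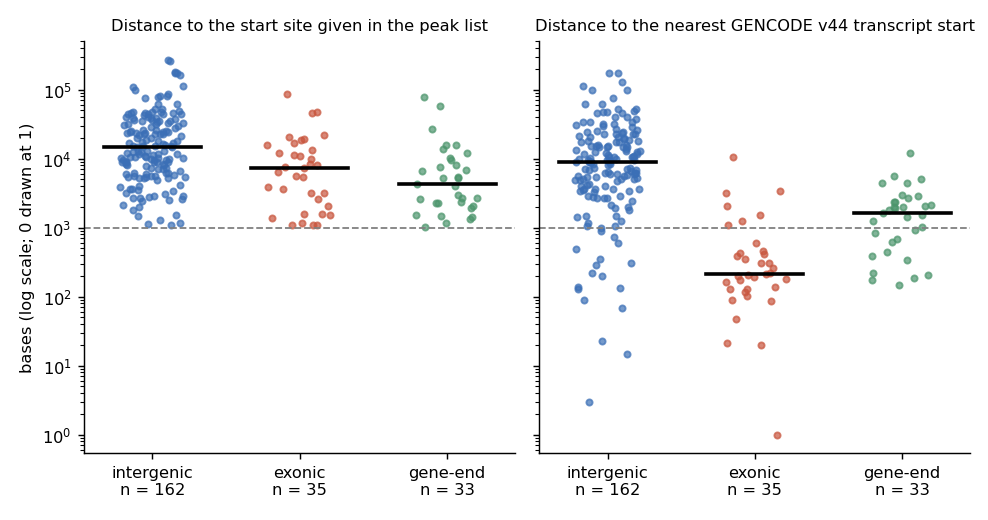
Distance of each peak centre from the start site in the peak list (left) and from the nearest GENCODE version 44 transcript start (right), in bases on a log scale, by class; bars are medians and the dashed line is 1000 bases. In the left panel every point is above the line by the rule, and in the right panel 28 of 35 exonic points are at or below it, with a median of 211 bases.

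In base composition, exonic peaks stood apart from the other two classes. In the central 300 bases the median GC content was 68.7% in exonic, 55.7% in gene-end and 52.8% in intergenic peaks. A CpG ratio (observed over expected) of at least 0.6 was found in 24 of 35 exonic peaks (68.6%, 52.0% to 81.4%), 8 of 33 gene-end peaks (24.2%, 12.8% to 41.0%) and 42 of 162 intergenic peaks (25.9%, 19.8% to 33.2%), against 91.9% of promoter peaks. Within the intergenic class, 11 of the 17 peaks with a GENCODE start within 1 kb had such a ratio, and 31 of the other 145.

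Gene-end peaks were concentrated on chromosome 19. They numbered 14 of 33 there (42.4%, 27.2% to 59.2%), against 6 of 35 exonic peaks, 7 of 162 intergenic peaks (4.32%, 2.11% to 8.65%) and 236 of all 1971 peaks (11.97%). Of the 10 gene-end peaks with the highest scores, 9 were on chromosome 19, at BCAT2, RTN2, BRSK1, PLEKHA4, C19orf67, MBOAT7 and PNPLA6, with 2 each at BCAT2 and BRSK1. Another peak lay within 10 kb of 10 of the 33 gene-end peaks (30.3%, 17.4% to 47.3%), of 4 of 35 exonic peaks and of 12 of 162 intergenic peaks. Joined over 10 kb, the 230 peaks formed 226 loci, and the 4 loci with 2 members each were at JPH4, MIDN/CIRBP, BRSK1 and DUSP9.

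Repeated sequence was found in intergenic and gene-end peaks. More than 1 alignment in GRCh37 with at least 90% identity over at least 80% of the peak was found for 21 of 162 intergenic peaks (12.96%, 8.64% to 19.004%), 3 of 33 gene-end peaks (9.09%, 3.14% to 23.6%) and 0 of 35 exonic peaks (upper Wilson limit 9.89%), and for 16 of 215 intronic peaks (7.44%) and 31 of 1493 promoter peaks. The intervals of the 3 classes overlapped. The stretch aligned from the AGGF1P2 peak (score 592) was 99.3% identical to sequence at the AGGF1P1 peak (score 3754) and 97.4% identical to sequence at the MIR1324 peak (score 412). All 3 held 2 ZNF143/THAP11 matches on opposite strands, as the first 3 printed stretches show. A read from one of these places can align to another, and the part this had in their scores was not tested.

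The ZNF143/THAP11 letters were found in the whole peak of 27 of the 230 members: 12 intergenic, 7 exonic and 8 gene-end. In the central 300 bases they were present in 23 (10.0%, 6.76% to 14.6%), and in 0 of 460 windows of the same length placed 2000 bases to either side. Because the letters were chosen from sequences of top peaks, a higher share in peaks than in these windows or in RefSeq promoters was favoured beforehand. Of 35116 RefSeq promoters of 300 bases (GRCh38.p14), 1.03% held the sequence, and of the promoter peaks 15.9% and the intronic peaks 7.91% did. By class, the share of centres with a match was 24.2% of gene-end (12.8% to 41.0%), 17.1% of exonic (8.10% to 32.7%) and 5.56% of intergenic peaks (2.95% to 10.2%). The interval of the gene-end share lay above that of the intergenic share, and the exonic interval overlapped both. These shares by class are a description too, with letters chosen from the same peaks. In the 27 peaks, the nearest match lay a median of 43 bases from the peak centre (0.5 to 237.5 bases), and within 50 bases in 15.

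Matches were counted by score as a description only: the letters had been chosen from the sequences of top-scoring peaks, a choice that favours matches at high scores. The 230 peaks were divided into 4 groups of near-equal size by score. In the highest group (107 to 3754), 24 of 57 held a match in the whole peak; in the next (50 to 102) 3 of 58 did, and in the lower groups 0 of 57 and 0 of 58 (upper Wilson limits 6.31% and 6.21%). The median score was 394 with a match (65 to 3754, n = 27) and 46 without (13 to 950, n = 203). Peaks of higher score were also wider; in the fixed 300-base centres, the counts by group were 22, 1, 0 and 0. The difference was seen in each class: 304.5 against 46 among intergenic, 408 against 46.5 among exonic and 208.5 against 48 among gene-end peaks. Promoter peaks showed medians of 325 with and 75 without a match, and intronic peaks 210 and 42.5. Of the 10 highest members, 8 held a match. The exceptions were the exonic peak near AC006486.1 (score 950) and the BCAT2 peak of score 620. The 8 include the AGGF1P1 and AGGF1P2 peaks, which are near-copies of each other. With their MIR1324 near-copy, they were counted as separate peaks in the highest group and among the intergenic matches.

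The FOXA letters had another distribution. They were in the centres of 17 of 162 intergenic peaks (10.5%, 6.66% to 16.2%) and 5 of 33 gene-end peaks (15.2%, 6.65% to 30.9%). They were in 0 of 35 exonic peaks (upper limit 9.89%) and in 2.28% of promoter peaks. Intronic peaks, which are not members, held them in 20 of 215 centres (9.30%, 6.10% to 13.9%), near the intergenic share. In the windows to either side of the intergenic peaks they were in 3.40%, and in RefSeq promoters in 3.42%. Over the whole peak, 31 members held FOXA letters and 27 the ZNF143/THAP11 letters, and 0 held both. Of all 1971 peaks, 99 held FOXA letters and 336 the ZNF143/THAP11 letters, and the number with both was not counted. With so few members holding either, the 0 is not read as a sign of separate kinds of peak. The 22 members with FOXA letters in the centre had scores of 13 to 446 (median 61.5), a median CpG ratio of 0.22, and a ratio of at least 0.6 in 1 of 22. The highest was an intergenic peak near FUNDC2P2. The HNF4A letters were in 7 member centres, 0.870% of the windows beside them and 1.20% of RefSeq promoters. Of the 7 centres, 4 also held FOXA letters, among them the FGG and IL6ST peaks printed above. The SP1 letters GGGCGG were in 71.4% of exonic centres (54.9% to 83.7%), 30.9% of intergenic (24.3% to 38.4%) and 24.2% of gene-end centres (12.8% to 41.0%). They were in 9.78% of the windows beside the members, 76.0% of promoter peaks, 39.5% of intronic peaks and 44.95% of RefSeq promoters.

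Of the other sequences searched, NRF1 (GCGCNTGCG) was in 8 of 230 centres and 0 of 460 windows beside them, ETS (CCGGAAG) in 14 and 11, and the E-box CACGTG in 14 and 16. AP-1 (TGANTCA) was in 13 and 42, YY1 (AAGATGG) in 14 and 36, CREB (TGACGTCA) in 2 and 1, the CTCF core CAGNNGGC in 61 and 88, and the NFY letters CCAAT in 53 and 156. In RefSeq promoters these were in 7.47%, 10.3%, 7.26%, 7.71%, 5.84%, 1.85%, 30.1% and 34.6%, in that order. All of these letters were searched on both strands. The RNA of the factors named first was present in all 10 RNA-seq libraries, at 13.0 to 17.1 TPM for ZNF143, 30.6 to 36.5 for THAP11, 71.6 to 107.3 for FOXA1 and 186.3 to 264.4 for HNF4A. No binding of these factors was measured.

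**Figure D3:**
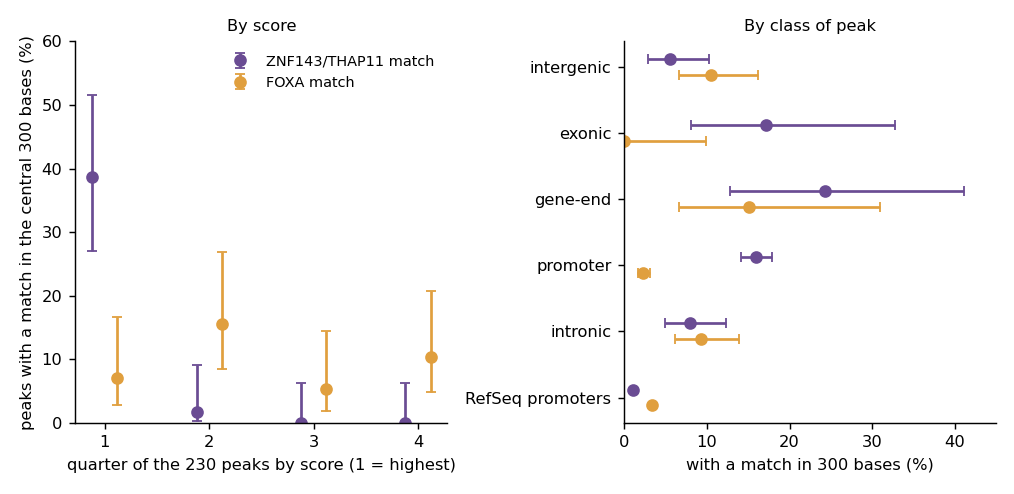
Share of peaks with a ZNF143/THAP11 or a FOXA match in the central 300 bases (%), by group of score among the 230 members (left) and by class of peak beside RefSeq promoters (right); bars are 95% Wilson intervals, which cover counting error only. ZNF143/THAP11 matches were in 22 of 57 peaks of the highest group and 1 of the other 173, and FOXA matches were in 4, 9, 3 and 6 peaks of the 4 groups from the top. The ZNF143/THAP11 letters were chosen after the sequences of the top peaks had been seen.

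The genes nearest to the members were less often in the expression tables than those nearest to promoter peaks. The 230 peaks had 221 nearest genes, of which 92 were found by symbol in the RNA-seq tables: 52 of 156 for intergenic peaks (33.3%), 20 of 35 for exonic peaks (57.1%), 20 of 31 for gene-end peaks (64.5%) and 77.5% for promoter peaks. The listed nearest gene was protein-coding for 30.2% of intergenic (23.7% to 37.7%), 57.1% of exonic (40.9% to 72.0%) and 57.6% of gene-end peaks (40.8% to 72.8%). For intergenic peaks, 26.5% of the nearest genes were pseudogenes and 21.0% lincRNAs. The TPM values below concern the 92 genes that were found.

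At 0 min, as the mean of the 2 libraries, the median level was 8.57 TPM for the nearest genes of intergenic peaks (95% order-statistic interval 1.32 to 24.5, n = 52), 28.1 TPM for exonic peaks (4.003 to 66.99, n = 20) and 13.8 TPM for gene-end peaks (1.73 to 35.0, n = 20). These intervals overlapped. The level for promoter peaks was 24.0 TPM (21.7 to 26.4, n = 1139), and that over all 26364 genes in the tables was 1.003 TPM. A mean of at least 1 TPM was reached by 35 of 52, 16 of 20 and 15 of 20 genes, against 91.1% for promoter peaks. In single libraries, the 0 min medians were 8.67 and 8.95 TPM for intergenic, 28.0 and 28.2 for exonic and 14.0 and 13.6 for gene-end peaks.

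Some of the 92 nearest genes were far above their median of 12.1 TPM at 0 min in these HepG2 libraries. AMBP, the precursor of alpha-1-microglobulin and bikunin, was at 2868 ± 83.7 TPM (SD, n = 2) and had an intergenic peak 2898 bases upstream (score 138). FGG was at 1982 and 2406 TPM in the 2 libraries, with the peak printed above, 5354 bases upstream (score 74). H1F0, a linker histone gene, was at 681 ± 32.4 TPM, and its intergenic peak 2596 bases upstream (score 166) held a ZNF143/THAP11 match. DHRS2, a short-chain dehydrogenase gene, was at 3141 and 3187 TPM, with a peak of score 62 in exon 1, and AHCY was at 408 ± 5.96 TPM. ASGR1, a subunit of the asialoglycoprotein receptor of hepatocytes, was at 362 ± 12.2 TPM and was the nearest listed gene of the highest exonic peak. Score did not order the genes by level: over the 95 member peaks with an expression value, the Spearman correlation of score with TPM was -0.11, and it was -0.12, -0.01 and -0.14 in the 3 classes. The nearest genes of the highest peaks ranged widely, from IZUMO2, listed at 0, and SYT5 at 0.138 TPM to PIH1D1, a component of the R2TP chaperone complex, at 75.6 TPM.

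**Figure D4:**
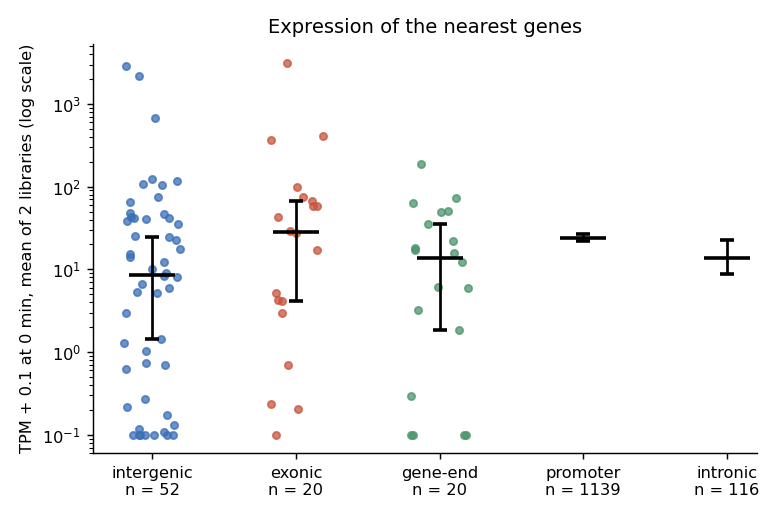
TPM at 0 min of the nearest gene of each member by class (points, mean of 2 libraries, plus 0.1, log scale), with the class median and its 95% order-statistic interval (black); promoter and intronic peaks are shown by median and interval only. The medians were 8.57, 28.1, 13.8, 24.0 and 13.6 TPM from left to right.

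RNA-seq was used to ask whether the nearest genes changed after insulin. Of the 92 genes, 68 passed the filter on low counts: 36 of intergenic, 17 of exonic and 15 of gene-end peaks. At 5 min, 0 of them were higher and 0 lower at an adjusted p under 0.05 by edgeR, and the same was found by DESeq2 and limma; 11 of the 68 (16.2%) had an unadjusted p under 0.05, as did 14.3% of all genes tested. Among all 13852 genes tested, 0.0% were called higher and 0.0% lower at 5 min. At 10 min, 1 of the 68 was lower (0.0938% of all genes tested) and 0 were higher (0.0433%). At 30 min, 1 was higher (0.188%) and 0 were lower (0.144%). Both genes had intergenic peaks. The gene called at 30 min, FOXQ1, did not have the nearest GENCODE start to its peak. By the gene of the nearest GENCODE start, 1 of 85 genes was higher at 30 min, and this was CIRBP. It lay 177 bases from a gene-end peak of score 14 and rose by 0.23 on the log2 scale (SE 0.0485, adjusted p = 0.0396 by edgeR). For the counts of 0 at 10 and 30 min, 13 of the 68 (19.1%) had an unadjusted p under 0.05 at each time, in either direction, against 5.13% of all genes tested at 10 min and 8.12% at 30 min.

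CCL20, a chemokine gene with a peak 5198 bases downstream of its start (score 113), was the gene called at 10 min. Its CPM (normalized counts scaled to library size) was 41.7 and 41.7 before insulin, 39.8 and 46.5 after 5 min, 28.5 and 29.6 after 10 min, 34.6 and 36.5 after 30 min, 50.1 and 42.2 after 240 min. Both 10 min libraries lay below all the others. It fell by 0.52 on the log2 scale at 10 min (SE 0.0807, adjusted p = 0.00385 by edgeR), and at 240 min its log2 difference was 0.15 (adjusted p = 0.128). The call at 10 min was lost in 6 of 18 other fits: without replicate 2 of 0 min or either replicate of 10 min, and in the 3 limma fits on TPM, with adjusted p up to 0.342.

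FOXQ1, a forkhead transcription factor gene with a peak of score 30 at 44118 bases upstream, was the listed gene called at 30 min. Its CPM was 111.8 and 111.7 before insulin, 116.9 and 109.6 after 5 min, 124.4 and 126.8 after 10 min, 134.4 and 138.4 after 30 min, 152.7 and 149.8 after 240 min. From 10 min on, each pair lay above the pair before it. The log2 rise was 0.29 at 30 min (SE 0.0477, adjusted p = 0.00695 by edgeR) and 0.44 at 240 min (SE 0.0477, adjusted p = 6.818e-07). The 30 min call was lost without either 0 min replicate, without replicate 2 of 30 min, and in the 3 limma fits, with adjusted p up to 0.141; the 240 min call held in all 18.

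At 240 min, 14 of the 68 nearest genes were higher and 13 lower, or 20.6% and 19.1%. Among all genes tested, 20.6% were called higher and 20.4% lower, so that the members' share was near the background. By class, 6 were higher and 6 lower among the 36 genes of intergenic peaks, 6 and 2 among the 17 of exonic peaks, and 2 and 5 among the 15 of gene-end peaks. The median log2 difference over the 68 genes was 0.00037, against -0.0026 over all genes. With the gene of the nearest GENCODE start in place of the listed gene, 16 of 85 were higher and 21 lower. By class, these were 7 and 8 of 39 for intergenic, 6 and 6 of 27 for exonic and 3 and 7 of 19 for gene-end peaks. The listed and the GENCODE gene were the same for 60 of the 77 peaks where both were in the tables. Over the peaks scoring more than 79 alone, the counts were 2 higher and 8 lower. The number of genes tested in that subset was not counted, so these counts give no share to set against that over all genes, and no direction is read from them.

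HES1, a repressor gene of the Notch pathway with an intergenic peak 1278 bases upstream (score 65), changed most among the listed nearest genes that rose. Its CPM was 13.5 and 13.5 before insulin, 14.5 and 13.5 after 5 min, 12.6 and 15.1 after 10 min, 15.5 and 17.9 after 30 min, 24.5 and 26.3 after 240 min. Both 240 min libraries were above all others, with a log2 rise of 0.91 (SE 0.0943, adjusted p = 3.851e-07 by edgeR). CYP24A1, which encodes the 24-hydroxylase that inactivates vitamin D, had an intergenic peak at 40688 bases and went from 3.94 and 3.73 CPM to 6.24 and 6.94 CPM, a log2 rise of 0.78 (SE 0.154, adjusted p = 0.000451). KDM6B, a demethylase of histone H3 lysine 27, had an intergenic peak 7231 bases upstream and rose by 0.29 (SE 0.0631). For the peaks of HES1, KDM6B, RNF146 and TOB2, another gene had the nearest GENCODE start. By the gene of that start, EML1 rose more than HES1, by 1.05 (SE 0.228, adjusted p = 0.00105 by edgeR). It lay 7094 bases from an intergenic peak of score 69 and went from 1.21 and 1.59 to 2.56 and 3.58 CPM.

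By the listed gene, the exonic class gave 5 of the 10 largest rises. By the gene of the nearest GENCODE start, 6 of 27 genes of this class were higher and 6 lower (22.2% each). KPNA3 went from 170.6 and 166.9 CPM to 234.0 and 252.1 CPM, with a log2 rise of 0.53 (SE 0.0561, adjusted p = 5.289e-07). RIF1, which acts in replication timing and repair of double-strand breaks, rose by 0.43, and its exon 1 peak had the lowest score of the class. CCDC51, a mitochondrial potassium channel gene, rose by 0.40; its call was lost in 4 of 18 other fits, among them without replicate 2 of 0 min and without replicate 2 of 240 min, and the peak itself was in exon 1 of PLXNB1. The nearest GENCODE start to that peak was 203 bases away, and PLXNB1 itself fell by 0.23 (SE 0.0574, adjusted p = 0.00336 by edgeR). DHRS2 rose by 0.27 and HEXIM1, an inhibitor of the elongation factor P-TEFb, by 0.24. From the gene-end class, MIDN, which promotes degradation of nuclear proteins by the proteasome, rose by 0.42, from 78.8 and 74.0 to 100.3 and 103.2 CPM.

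The falls at 240 min were smaller. CAMSAP3, which binds microtubule minus ends and had a peak in exon 1, went from 47.9 and 48.7 CPM to 38.5 and 34.4 CPM and fell by 0.40 on the log2 scale (SE 0.0647, adjusted p = 5.688e-05). ARHGEF28, a guanine nucleotide exchange factor gene with an intergenic peak 1998 bases upstream (score 96), went from 93.9 and 102.5 to 75.7 and 75.1 CPM and fell by 0.39. Among the other genes of intergenic peaks, MKNK2, a kinase of the translation factor eIF4E, fell by 0.31, RNF146, a ubiquitin ligase gene, by 0.30, TOB2, an antiproliferative gene, by 0.29 and AMBP by 0.25. Of the gene-end class, PNPLA6, a lysophospholipase gene, fell by 0.36, RTN2, a reticulon gene, by 0.36 and RHBG, an ammonium transporter gene, by 0.24.

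Among the genes of the highest peaks, ASGR1 went from 219.1 and 227.1 CPM at 0 min to 194.4 and 188.5 CPM at 240 min and fell by 0.22 (SE 0.0559, adjusted p = 0.0036). RTN2, with a gene-end peak of score 1404, was at 9.88 and 11.6 CPM at 0 min and 7.996 and 9.10 CPM at 240 min, with an adjusted p of 0.0167 that was lost with DESeq2, without replicate 2 of 0 min and without replicate 1 of 240 min. PIH1D1 fell by 0.20 (adjusted p = 0.0167). MAMSTR, BCAT2 and PPP1R15A had log2 differences of -0.05, -0.04 and 0.04 at 240 min, with adjusted p of 0.807, 0.894 and 0.695. IZUMO2 and SYT5 did not pass the filter on low counts. Of the 20 genes named as the largest changes at 240 min, AMBP, ASGR1, CCDC51, PNPLA6, RHBG, RNF146 and RTN2 lost the call in 2 to 5 of 18 other fits, and no other did. Besides CCDC51 and RTN2, the call was lost without replicate 2 of 0 min for RHBG (adjusted p of at most 0.169 over the 18 fits, by edgeR, DESeq2 or limma) and RNF146 (at most 0.118), and without replicate 1 of 240 min for RHBG and PNPLA6 (at most 0.0684).

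Of the 57 genes of an insulin signalling and metabolism list, which included INSR, the IRS, PI3K, AKT and FOXO genes and the genes of lipid and glucose synthesis, 0 were the nearest listed gene of a member and 0 had the nearest GENCODE start. Of the same list, 7 were the nearest listed gene of any of the 1971 peaks, and 6 that of a promoter peak, among them SREBF1, TIMM22 and ACLY. With so few over all peaks, the 0 among the 230 members is not read as a trait of theirs. The peak at FASN was also annotated to a promoter. By nearest GENCODE start, promoter peaks also lay at INSR (3 bases), ACACA (4), TSC1 (7), GSK3B (101) and SHC1 (209). By nearest protein-coding start, at any distance, 3 list genes were found for members. This was counted for members only, so the 3 cannot be set against promoter peaks or all peaks. FOXO3, a transcription factor gene that AKT restrains, lay 1564 bases from an intergenic peak of score 85; it stood at 56.6 and 59.4 CPM at 0 min and 49.9 and 47.1 CPM at 240 min and fell by 0.26 on the log2 scale (adjusted p = 0.00201). GSK3A, a kinase of glycogen synthase, lay 2188 bases from the exonic peak of score 950 and fell by 0.23 (adjusted p = 0.0116 by edgeR). A promoter peak of score 2836 annotated to GSK3A, and so not a member, had the same nearest listed gene, AC006486.1. PTPN1, the phosphatase that acts on the IR, was the nearest coding gene of an intergenic peak at 120909 bases and rose by 0.41 (adjusted p = 1.757e-06 by edgeR). Over all genes tested, 41.0% were called at 240 min in either direction. None of the 3 was called at 5, 10 or 30 min, where adjusted p was 0.5 or higher by edgeR.

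**Figure D5:**
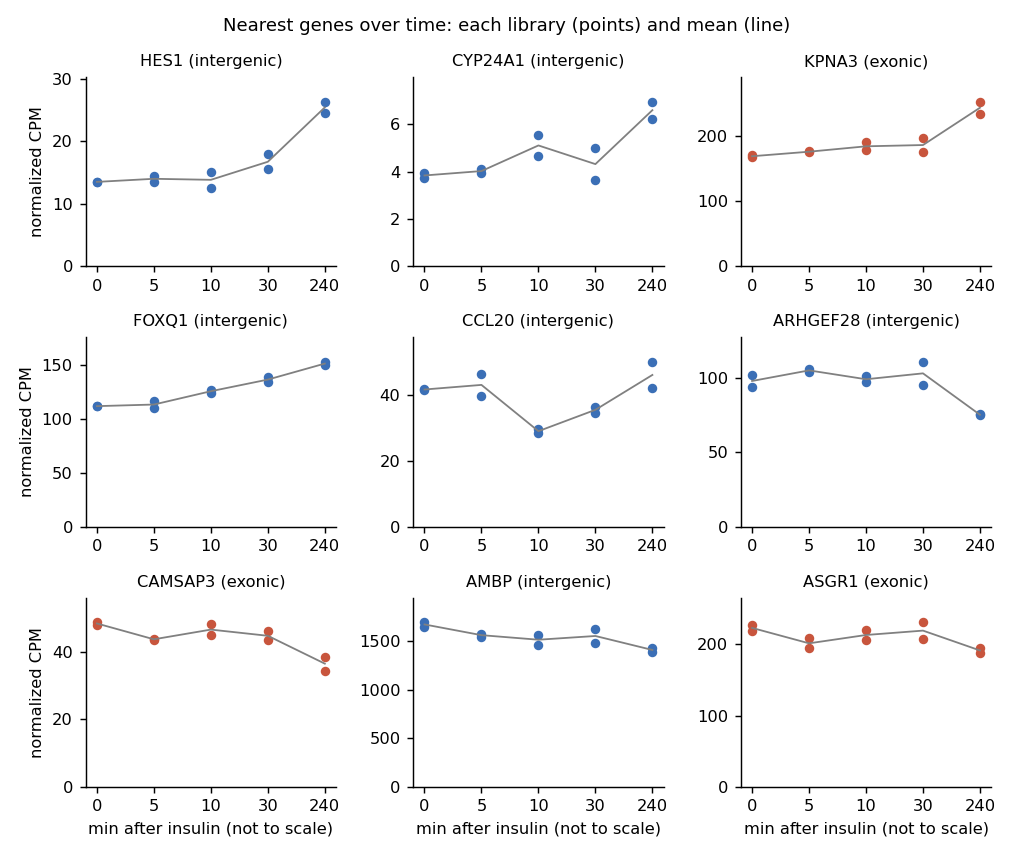
Normalized CPM of 9 nearest genes in each of the 10 libraries by time after insulin (min, categories not to scale), with points for libraries, a line through the means of 2 and the class of the peak in each title; axes start at 0. HES1, CYP24A1, KPNA3 and FOXQ1 were higher in both 240 min libraries than in both 0 min libraries, CCL20 was lowest at 10 min, and ARHGEF28, CAMSAP3, AMBP and ASGR1 were lower at 240 min.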

How the data were processed

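The authors aligned ChIP-seq reads to hg19 with BWA 0.7.17-r1188, called peaks with MACS2 2.2.7.1 and deposited 1 list with a score per peak and a HOMER annotation; how the score is scaled, and which of several start sites of a gene HOMER used, is not given in the sources used here. For RNA-seq the authors aligned with STAR 2.6.1d, counted with featureCounts 1.6.4 as reverse-stranded and deposited raw counts, and deposited TPM from StringTie. FPKM values in the same deposited tables were not used. The input library was not analysed here. The extraction texts of the ChIP and RNA libraries name each other's kind of kit in the labels.

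The members and lists were chosen with earlier results of these data known. Peak sequences came from GRCh37, start sites from GENCODE 44 lifted to GRCh37, and copies from blastn 2.17.0 (megablast, low-complexity sequence masked). Classes of peaks were compared by medians, quartiles and Wilson intervals, without a test. Listed nearest genes were matched to the expression tables by symbol, current or older symbol of the Ensembl ID, on the same chromosome. Counts (18347109 to 45005769 per library; 92 spike-in rows without a gene name, 1.59% to 2.36% of counts, left out) were tested with edgeR 4.0.16 (R 4.3.3): TMM, filterByExpr, 1 quasi-likelihood fit of 10 libraries, each time against 0 min, Benjamini-Hochberg over 13852 genes. Replicates differed by more than sampling noise (chi-square per degree of freedom 2.86 to 6.46). Scripts for the test were checked on simulated data. Named were, per class, the 5 highest and 2 lowest peaks, the 2 farthest and those at the distance limit; the genes of the highest peaks, genes called at 5, 10 or 30 min, the 10 largest rises and falls at 240 min among called genes averaging 1 CPM or more whose replicates did not overlap, and genes on the insulin list, with FASN, SREBF1 and TIMM22. Other peaks and genes, and the ZNF143/THAP11 letters, were named after values were seen. Alternatives were DESeq2 1.42.0, limma 3.58.1 on log2(TPM + 1) or log2(TPM + 0.1), also for a mean TPM of at least 1, RLE normalization, no filter, only the compared times, a replicate block, single libraries left out, other limits of distance and score, chromosomes 1 to 22 and X, and merged loci. The gene of the nearest GENCODE start was added after seeing the data.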

Additional observations from a re-analysis of the deposited data

Results flagged for a closer look

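Among the 20 genes named for the largest changes at 240 min, the 240 min effect differed from the 30 min effect for 17, tested directly as 240 against 30 min in the same edgeR fit; among all genes tested, 19.8% were called higher and 18.4% lower in that comparison. The log2 difference was positive for HES1 (0.61), CYP24A1 (0.63), KPNA3 (0.39), FOXQ1 (0.15), RIF1 (0.43), MIDN (0.22), CCDC51 (0.43), KDM6B (0.34), DHRS2 (0.16) and HEXIM1 (0.19). It was negative for CAMSAP3 (-0.29), ARHGEF28 (-0.45), RTN2 (-0.33), MKNK2 (-0.21), RNF146 (-0.20), RHBG (-0.24) and ASGR1 (-0.20). Adjusted p ranged from 2.283e-06 for RIF1 to 0.0363 for RTN2. PNPLA6, TOB2 and AMBP missed the threshold, with adjusted p of 0.11, 0.0611 and 0.0519. The genes had been named for their 240 min change, so that a difference from 30 min was favoured by the choice.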

How the results depend on the processing

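Of 242 recomputed values for 20 results, 210 stayed near the reported value, a count within 1.5 times and a median inside its 95% order-statistic interval. The single call at 10 min (lower) became 2 without a filter on low counts and 0 in each limma fit, with 0 to 1 when single libraries were left out. The single call at 30 min (higher) became 2 without the filter and 2 without a minimum distance, 0 in each limma fit and 0 for scores above the median only, with 0 to 1 without single libraries. With the gene of the nearest GENCODE start, 1 gene was again higher at 30 min, but it was CIRBP and not FOXQ1. At 240 min, the 14 genes called higher became 9 for members over 5000 bases and 2 for scores above the median. The numbers of genes tested in such subsets of peaks were not counted, so their counts give no share. The 13 called lower became 7 in both limma fits on all genes, 8 for a mean TPM of at least 1, 6 over 5000 bases, 8 for scores above the median, and 21 with the gene of the nearest GENCODE start. Without single libraries, 10 to 14 were called in each direction. For scores above the median only, the median width became 439 bases for intergenic and 531 for exonic peaks, the median distance of intergenic peaks 8837.5 bases, and the median TPM of the genes of exonic peaks 2.62. Limiting members to over 5000 bases, which raises distance by construction, gave medians of 19727, 12253 and 9947.5 bases for intergenic, exonic and gene-end peaks. With no minimum, the exonic median was 1534 bases and the gene-end median 2654 bases. The causes of the other changes were not tested. Replicate numbers did not pair the libraries: deviations correlated by -0.12 to 0.13 over 10 pairs of times, with 2 above 0.1, and with a replicate block 0 and 0 genes were called at 5 min, 1 lower at 10 min, 1 higher at 30 min, and 14 higher and 14 lower at 240 min. With 2 replicates a time and 1 ChIP library, small changes and the error of single peaks could not be resolved.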
